A study of Mus musculus with 18 samples.

Results

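The regions described here are 184 bins of 500 kb on chromosomes that carry neither bait gene, in which both 4C arrays of the Ifng gene in naive CD4 T cells lay high. Each array was cut into bins that do not overlap, each bin's probe values were averaged, and the array's median over probes off chromosome 10, the chromosome of Ifng, was subtracted. A bin was taken if this centred mean was at least 0.2 on the log2 scale in both naive Ifng arrays and if it held at least 20 probes. Of 4237 such bins on chromosomes 1 to 9 and 12 to 19, called trans bins here because a contact with them joins different chromosomes, 184 (4.34%) met the rule, out of 5026 bins on all chromosomes. The bins were thus chosen by the naive Ifng values, which are given as a description with no test, and tests use the 16 other arrays.

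The study measured contacts of Ifng and Il4 in mouse cells by 4C, in which crosslinked chromatin is cut, ligated and amplified from 1 chosen gene, the bait, so that DNA lying near the bait in the nucleus is enriched. The product was hybridised in Cy5 against digested genomic DNA from matching cells in Cy3, on 18 arrays of 384942 probes, and a value is the log ratio of both, whose base was taken as 2. For the Ifng bait there were 2 arrays each of the 3T3-L1 cell line, of Stat4 KO Th1 cells, of Th1 cells, of Th2 cells and of naive CD4 T cells, and for the Il4 bait 2 each of Stat6 KO Th2 cells, of Th2 cells, of Th1 cells and of naive CD4 T cells. All groups but 3T3-L1, a mouse fibroblast line that can become fat cells, are primary CD4+ T cells. The labels give no age, strain, knockout allele or culture conditions, and they give the 3T3-L1 arrays the T cell characteristic too. The design text calls the arrays biological replicates, and mentions 1 array made from a pool of 2 replicates without naming it.

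A naive CD4 T cell has met no antigen and keeps both cytokine genes silent. Interferon gamma, encoded by Ifng, is the signature product of Th1 cells, which form under interleukin 12 and its transcription factor STAT4. Interleukin 4, encoded by Il4, marks Th2 cells and needs STAT6. Chromosomes occupy territories of their own in the nucleus, and contacts between different chromosomes are weak and vary from cell to cell. Gene-rich, open stretches of different chromosomes tend to meet each other more than they meet closed, gene-poor stretches.

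The arrays differed in how strongly they enriched DNA near the bait, and these values stand beside several results below. In bins 1 to 2 Mb beyond the bait bin the mean log2 ratio was highest in Ifng Th2 cells, at 2.62 ± 0.19 (SD, n = 2), and 2.23 ± 0.11 in the naive Ifng arrays. It was lowest in Il4 Th2 cells, at 0.87 ± 0.13, and in Ifng Th1 cells, at 0.92 ± 0.32. The SD over trans bins was smallest in the Ifng Th1 arrays, at 0.048 and 0.055, and largest in the second Il4 naive array, at 0.135. Precision is limited by the 2 arrays per group.

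In the naive Ifng arrays the 184 bins ran from 0.20 to 0.62 in replicate 1 and from 0.20 to 0.69 in replicate 2, with medians of 0.26 and 0.29, against 0.010 and 0.0046 over all trans bins. The 2 arrays picked partly different bins. Of 269 trans bins at 0.2 or more in replicate 1, 184 (68.4%) were so in replicate 2, beside 11.9% of all trans bins. Of 503 bins at 0.2 or more in replicate 2, the same 184 (36.6%) were so in replicate 1, beside 6.35% of all trans bins. At the edge of the rule, the lowest value that entered was 0.20 at chr2:165500001-166000000, and the highest that failed was also 0.20 after rounding, at chr15:99000001-99500000.

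A minority of strong probes carried much of each bin's mean. Of 13915 probes in the 184 bins, 1393 (10.0%) reached 1 in replicate 1 and 1333 (9.58%) in replicate 2, against 2.36% and 2.35% of the other trans probes. Only 184 probes reached 1 in both arrays, which is 13.2% of those in replicate 1 and 13.8% of those in replicate 2. Across probes of the bins the replicates correlated at r = 0.085 (n = 13915, a description), so that mostly different probes of the same bins were strong in each array. The median probe of the bins was also above the rest, at 0.125 and 0.145, against 0.000 and -0.010 in the other trans bins. With the median of the probes in place of their mean, 9 bins met the rule. Bins differed in the number of strong probes. At chr2:43500001-44000000, 19 and 23 of 86 probes reached 1, with means of 0.61 and 0.62 and probe medians of 0.12 and 0.105. At chr17:87000001-87500000, 3 and 2 of 68 probes did, with means of 0.20 and 0.20 and probe medians of 0.20 and 0.165.

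The highest bins formed stretches. The 184 bins fell into 126 runs of adjacent bins, of which 93 were single bins and 33 runs of at least 2 held 91 bins. The longest run, 7 bins at chr16:91000001-94500000 in bands 16qC3.3 and 16qC4, averaged 0.40 and 0.46 in the naive Ifng arrays. Next came 5 bins at chr15:78000001-80500000 in band 15qE1, at 0.31 and 0.38, and 5 bins at chr14:51500001-54000000, at 0.32 and 0.42. The first of the latter lies in no single band and the others in 14qC2. Coordinates are in mm8, the build inferred from the probe positions. Levels fell off over a few Mb on both sides. In the naive Ifng arrays the mean was 0.29 ± 0.023 at the bins, 0.20 ± 0.030 at 0.5 Mb before them, 0.21 ± 0.040 at 0.5 Mb after them, and 0.052 ± 0.015 and 0.067 ± 0.015 at 5 Mb before and after (SD over 2 arrays). The bins on either side that were not in the set still averaged 0.14 ± 0.035 and 0.16 ± 0.039.

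**Figure D1:**
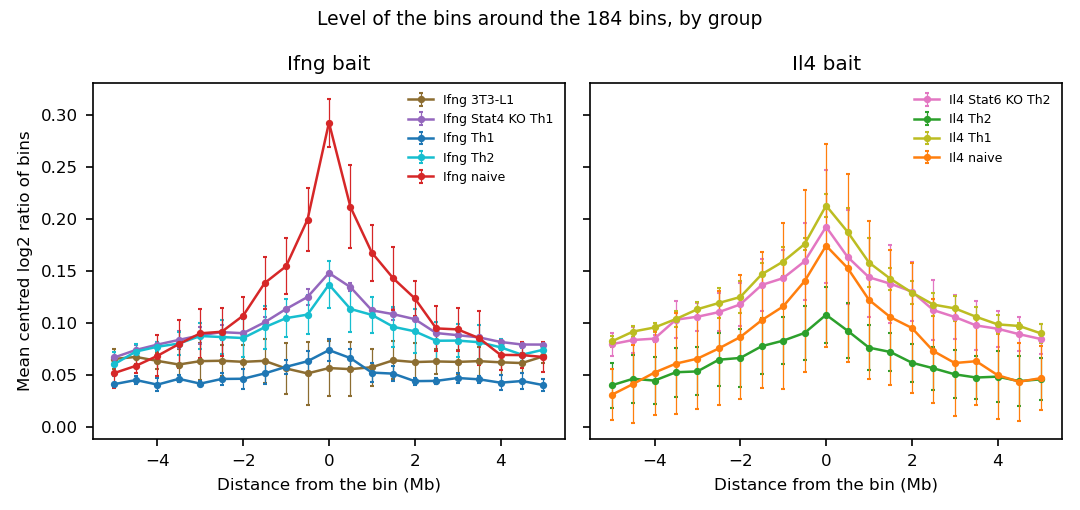
Mean centred log2 ratio of the bins at each distance in Mb from the 184 bins, for the groups of the Ifng bait (left) and the Il4 bait (right). Points are means of 2 arrays and bars their SD. The naive Ifng curve, which chose the bins, peaks at 0.29, the Il4 Th1 curve peaks at 0.21 in the same place, and the 3T3-L1 curve stays between 0.05 and 0.07.

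The bin with the highest lower naive value, chr16:92500001-93000000 in band 16qC4 inside the longest run, was high in the naive Ifng arrays alone. Its level was 0.62 and 0.67 there. With the Ifng bait it was -0.0031 and -0.0005 in 3T3-L1, 0.16 and 0.22 in Stat4 KO Th1, 0.10 and 0.10 in Th1, and 0.10 and 0.15 in Th2 cells. With the Il4 bait it was 0.04 and 0.11 in Stat6 KO Th2, 0.085 and 0.056 in Th2, 0.060 and 0.15 in Th1, and 0.15 and 0.092 in naive cells. The naive Ifng arrays thus lay above all the others, which the choice of this bin by its naive values favours. Of its 85 probes, 20 and 21 reached 1 in the naive Ifng arrays, 7 of them in both, against 1 to 11 probes in the other arrays.

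The largest gap to the other 16 arrays was at chr2:43500001-44000000 in band 2qB. The naive Ifng arrays gave 0.61 and 0.62, and the highest of the others was 0.19, in the first Stat4 KO array, whose replicate gave -0.0088. With the Ifng bait 3T3-L1 gave 0.024 and -0.073, Th1 cells 0.017 and 0.020, and Th2 cells 0.053 and -0.050. With the Il4 bait the level was -0.072 and 0.11 in Stat6 KO Th2, -0.058 and -0.057 in Th2, 0.019 and -0.037 in Th1, and -0.017 and 0.066 in naive cells. Apart from naive Ifng, no group was high here in both its arrays, in a bin that was named for the size of this gap. The next bin, chr2:44000001-44500000, behaved alike, with 0.27 and 0.43 in the naive Ifng arrays and at most 0.075 in the others. Further gaps were 0.21 at chr16:93000001-93500000 and 0.16 at chr15:59000001-59500000 in band 15qD1.

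The bin chr15:80000001-80500000 in band 15qE1 gave 0.45 and 0.48 in the naive Ifng arrays, and nearly the same, 0.40 and 0.45, in Il4 Th1 cells. It gave 0.29 and 0.40 in Il4 naive cells, 0.26 in both Ifng Th2 arrays, and 0.14 and 0.020 in Ifng Th1 cells. The naive Ifng and Il4 Th1 arrays overlap at this bin. Among the other bins with the highest naive values were chr12:107500001-108000000, with 0.43 and 0.46 (gap 0.14), chr14:51500001-52000000, with 0.46 and 0.39, chr16:94000001-94500000, with 0.37 and 0.56, chr16:92000001-92500000, with 0.37 and 0.49 (gap 0.02), and chr14:53500001-54000000, with 0.36 and 0.36. Of all 184 bins, 39 (21.2%) had a lower naive Ifng value above every one of the 16 other arrays, a share that the choice of bins on the naive arrays favours. The same was not counted over all trans bins, and nothing particular to the set is read from it.

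**Figure D2:**
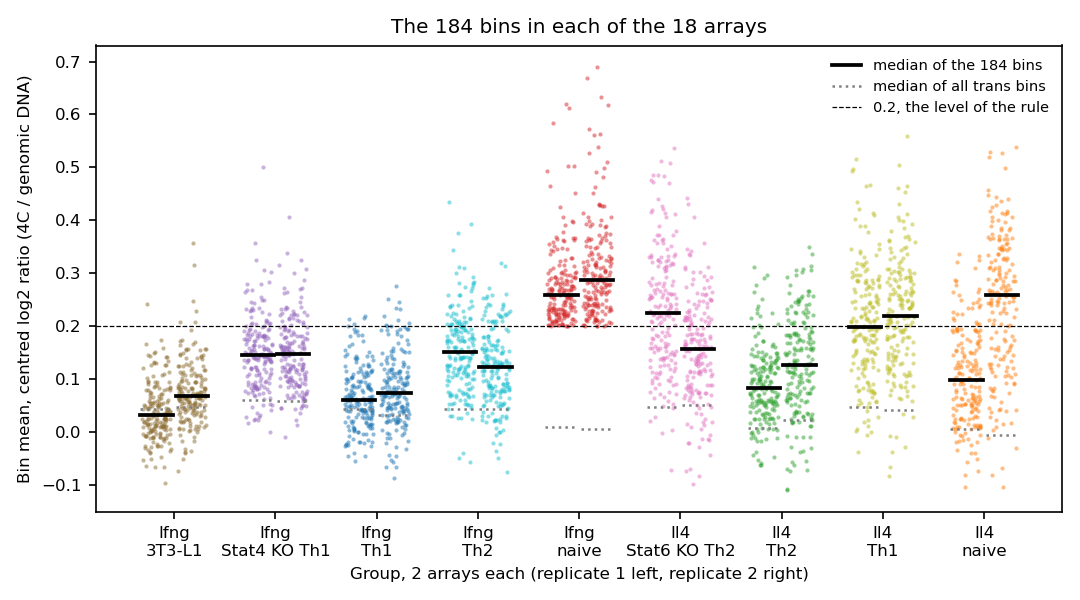
Centred log2 ratio of the 184 bins (points) in each array, 2 arrays per group, with the median of the bins as a solid line and the median of all trans bins as a dotted line. The medians are 0.26 and 0.29 in the naive Ifng arrays that chose the bins, 0.20 and 0.22 in Il4 Th1 cells, and 0.03 and 0.07 in 3T3-L1.

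The bins were followed in the groups that played no part in choosing them. The medians of the 184 bins with the Ifng bait were 0.032 and 0.068 in 3T3-L1, 0.14 and 0.15 in Stat4 KO Th1, 0.060 and 0.074 in Th1, and 0.15 and 0.12 in Th2 cells. Over all trans bins the medians of these arrays were 0.032 to 0.059. With the Il4 bait the medians of the 184 bins were 0.23 and 0.16 in Stat6 KO Th2, 0.082 and 0.13 in Th2, 0.20 and 0.22 in Th1, and 0.098 and 0.26 in naive cells, with all trans bins between -0.0064 and 0.052. The first 3T3-L1 array was the lowest and lay below its own trans median. Both Il4 Th1 arrays, the second Il4 naive array and the first Stat6 KO array came closest to naive Ifng, and the Il4 naive pair was the most uneven of all groups.

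Each of the 8 groups was tested for bins above the array median with limma, fitted over all bins of the bait's 8 arrays and adjusted over all bins. With the Ifng bait 157 of 184 bins passed in Stat4 KO Th1 cells, beside 32.6% of all trans bins, and 132 passed in Th2 cells, beside 25.6%. In Th1 cells 27 passed, beside 2.76% of trans bins, with 65 (589 of 4237 trans bins) after division of each array by its median absolute deviation and 61 (554 of 4237) after quantile normalization. In 3T3-L1 21 bins (11.4%) passed, beside 14.2% of trans bins, so the set did not stand above the background there. For the Il4 bait 104 passed in Stat6 KO Th2 cells, beside 15.6%, 131 in Th1 cells, beside 17.3%, and 73 in naive cells, beside 4.56%. On simulated data with the groups' unequal spread, the share of false calls was high in the Il4 naive test. In Il4 Th2 cells 2 passed, beside 0.236%, with 79 of 184 at an unadjusted p under 0.05. Counts at an unadjusted p, here and below, were not made over all trans bins. Nothing particular to the set is read from them. No bin of the 184 passed below the median in any of the 8 groups. Few trans bins did either, from 0 of 4237 in 3T3-L1 and Il4 Th2 cells to 28 in Ifng Th2 cells.

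These counts share 1 estimate of the spread per bait, although the spread differed between groups, and with the arrays of the group alone the Il4 Th2 count was 113, beside 651 of 4237 trans bins. With the median of a bin's probes in place of their mean, the counts were 1 in 3T3-L1 (73 of 4237 trans bins), 10 in Stat4 KO Th1 (28) and 0 in Ifng Th1 cells (0). In Ifng Th2 cells 110 bins passed above the median and 1 below, beside 679 and 549 of 4237 trans bins. With the Il4 bait the counts were 0 in Stat6 KO Th2 (0 trans bins), 0 in Th2 (0), 10 in Th1 (28) and 20 in naive cells (43). Counts with an array left out, here and below, stand without those over all trans bins. In Ifng Th1 cells the calls over all trans bins fell too without replicate 1. A change in such a count is therefore not read as particular to the set. Without the first array the count was 49 in Ifng Th2, 9 in Stat6 KO Th2 and 59 in Il4 Th1, and without the second array 11 in Il4 naive, 41 in Stat6 KO Th2 and 31 in Il4 Th1. Leaving out an array of the group gave 97 and 96 in Stat4 KO Th1, 11 and 6 in Ifng Th1, 6 and 1 in 3T3-L1, and 0 and 0 in Il4 Th2. Arrays of other groups enter through the shared spread, and the Ifng Th1 count was 16 without either 3T3-L1 array, while the Il4 Th2 count was 10 without either Il4 naive array, 7 without either Il4 Th1 array and 0 without either Stat6 KO array.

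At the level of the rule, 0.2 or more in both arrays of a group, 100 of the 184 bins were held by at least 1 other group, beside 10.4% of trans bins, and 84 by none. Of the 100, 74 were held by Il4 groups only, 6 by Ifng groups only and 20 by groups of both baits. Il4 Th1 cells held the most, 72 bins (39.1%), beside 5.59% of trans bins. Stat6 KO Th2 cells with the Il4 bait held 46 (25%), beside 3.87%, Il4 naive cells 28 (15.2%), beside 1.39%, and Il4 Th2 cells 6, beside 0.378%. With the Ifng bait, Th2 cells held 17 (9.24%), beside 1.11%, Stat4 KO Th1 cells 9, beside 1.01%, 3T3-L1 1, beside 1.77%, and Th1 cells 0, beside 0.0236%. More of the bins were held with the Il4 bait than in other cells with the Ifng bait.

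A fixed level depends on the scale of an array, so the bins were also counted by rank, as those among the highest 10% of trans bins in both arrays of a group. With the Ifng bait these were 5 bins (2.72%) in 3T3-L1, beside 4.56% of trans bins, 30 in Stat4 KO Th1 cells, beside 3.09%, 18 in Th1 cells, beside 2.03%, and 47 in Th2 cells, beside 4.65%. The Il4 bait gave 48 in Stat6 KO Th2 cells, beside 4.11%, 56 in Th2 cells, beside 4.98%, 76 in Th1 cells, beside 5.88%, and 76 in naive cells, beside 4.27%. By rank, Ifng Th1 cells therefore held some of the bins and Il4 Th2 cells many, while 3T3-L1 again did not stand above the background.

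**Figure D3:**
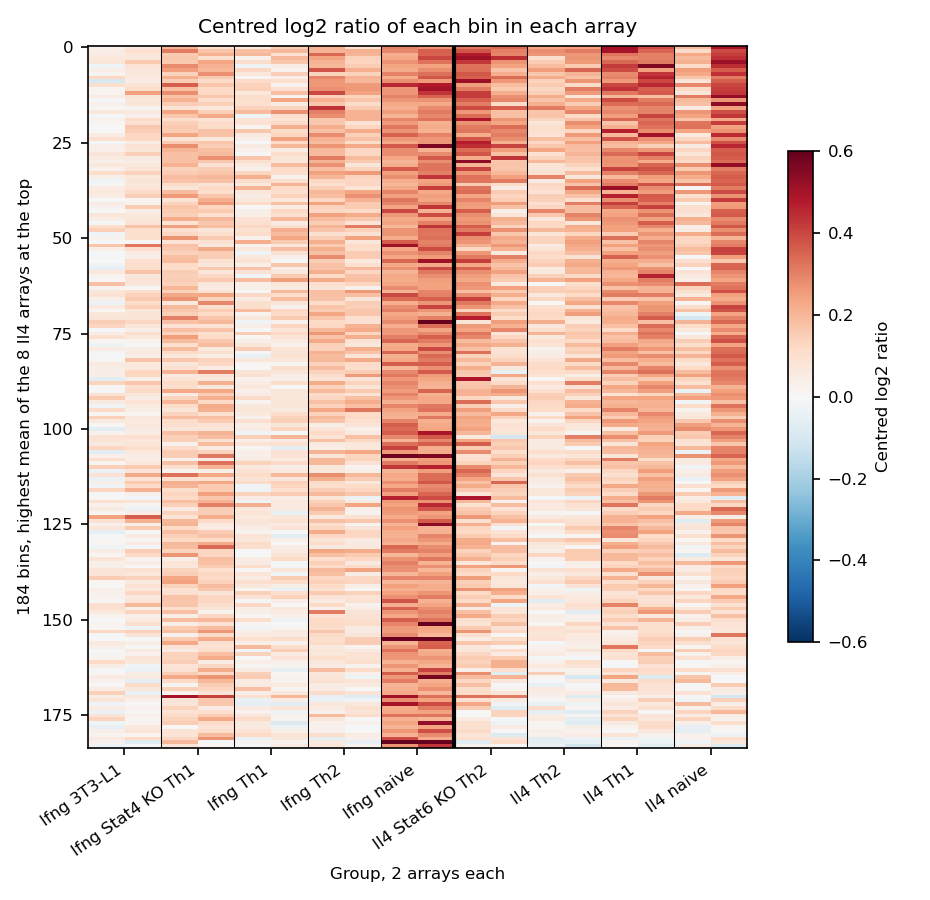
Centred log2 ratio of the 184 bins (down the page, the bin with the highest mean over the 8 Il4 arrays at the top) in the 18 arrays, 2 per group, with the Ifng bait left of the thick line. The upper part is red in Il4 Th1, Il4 naive replicate 2 and Stat6 KO as well as in naive Ifng cells, the lower part chiefly in naive Ifng cells.

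The bins highest with the Il4 bait were chr17:28500001-29000000 in band 17qA3.3, with a mean of 0.34 over the 8 Il4 arrays, chr15:76000001-76500000 at 0.33, chr2:30000001-30500000 at 0.32, chr4:134500001-135000000 at 0.32 and chr15:78000001-78500000 at 0.31. At chr17:28500001-29000000 Il4 Th1 cells gave 0.50 and 0.39, above the 0.30 and 0.27 of the naive Ifng arrays. Some bins were above the median everywhere. In 89 of the 184 bins (48.4%) all 16 other arrays were above 0, beside 10.6% of trans bins. Their lowest value among the 16 was highest at chr12:113000001-113500000 in band 12qF1, where the 16 arrays ranged from 0.092 to 0.34. The other 4 with the highest such minimum were chr15:78000001-78500000 at 0.072, chr13:44000001-44500000 at 0.061, chr5:125000001-125500000 at 0.059 and chr16:32500001-33000000 at 0.058.

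Over all 4237 trans bins the array means of Il4 naive cells correlated with the naive Ifng mean at r = 0.40 and 0.83. Those of Il4 Th1 cells did so at 0.68 and 0.76, Il4 Th2 at 0.61 and 0.63, and Stat6 KO Th2 at 0.73 and 0.41. With the Ifng bait r was 0.66 and 0.56 in Th2, 0.58 and 0.55 in Stat4 KO Th1, 0.090 and 0.39 in Th1 cells, and -0.12 and 0.24 in 3T3-L1. These values describe bins that share probes and base composition. The array serial numbers fall into series by their first 2 digits, and both naive Ifng arrays are of series 31. The second Il4 naive array, at r = 0.83, is of series 31 and the first, at r = 0.40, of series 40, whereas the Ifng Th1 array of series 31 had r = 0.090 and its replicate of series 40 r = 0.39. Within groups that hold both series, series 31 minus series 40 had a median of 0.03 over the 184 bins, against -0.0027 over all trans bins. The median of the 184 was -0.02 without either Il4 naive array and 0.06 without either Il4 Th2 array. Of the 184, limma called 0 in either direction, as it called none of the trans bins (0.00%). At an unadjusted p under 0.05, 5 were higher and 1 was lower.

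Between Th1 and Th2 cells with the Ifng bait, 1 bin was higher in Th1, beside 0.0944% of trans bins, and 6 were lower, beside 0.873%. The median difference of the 184 bins was -0.06, against -0.0043 over all trans bins. The largest fall was at chr4:133500001-134000000 in band 4qD3, with 0.0048 and 0.040 in Th1 cells, against 0.29 and 0.21 in Th2 cells. The groups did not overlap, and the difference was -0.23 (SE 0.048, limma adjusted p = 0.0115). The other named falls were -0.22 at chr8:125000001-125500000 (limma adjusted p = 0.0350) and -0.21 at chr1:135000001-135500000 (limma adjusted p = 0.0381). After quantile normalization no fall passed and 1 rise was called, beside 4 falls and 7 rises in 4237 trans bins. Division by the median absolute deviation gave the same, beside 0 falls and 5 rises in trans bins. With the median of probes 23 falls and 0 rises passed, beside 86 falls and 52 rises in trans bins. With the serial series as a block none passed, nor did any trans bin. Without either Ifng Th1 array or without Th2 replicate 1, 1 to 2 bins passed, and without either 3T3-L1 array 2 bins passed.

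Th1 minus Th2 was positive in 29 of the 184 bins, of which 1 was called, chr8:84500001-85000000 in band 8qC2. It gave 0.50 and 0.41 in Stat4 KO Th1 cells, against 0.090 and 0.20 in Th1 cells. It was -0.049 and -0.076 in Ifng Th2 cells, 0.037 and 0.074 in 3T3-L1, and 0.50 and 0.33 in the naive Ifng arrays that chose it. With the Il4 bait it was 0.33 and 0.31 in Stat6 KO Th2 cells, against 0.025 and -0.072 in Th2 cells, and at most 0.034 in Il4 Th1 and Il4 naive cells. Stat4 KO Th1 cells thus lay above Th1 and Th2 cells of the Ifng bait without overlap, though not above naive cells, and Stat6 KO Th2 cells above all 3 wild-type groups of the Il4 bait. The difference between Stat4 KO Th1 and Th1 cells was 0.31 (SE 0.050, limma adjusted p = 0.00248). That between Stat6 KO Th2 and Th2 cells was 0.35 (SE 0.061, limma adjusted p = 0.164) and did not pass. The 4 knockout arrays are all of serial series 41, which holds no other group, so that genotype and series cannot be told apart.

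In all, 4 of the 184 bins were higher in Stat4 KO Th1 than in Th1 cells, beside 0.566% of trans bins, and none was lower, beside 0.00%. At an unadjusted p under 0.05, 53 were higher and 0 lower, a count not made over all trans bins. The median difference was 0.08, against 0.02 over all trans bins. At chr2:30500001-31000000 in band 2qB Stat4 KO Th1 cells gave 0.28 and 0.21, against -0.019 and 0.044 in Th1 cells, a difference of 0.23 (SE 0.051, limma adjusted p = 0.0199). At chr16:92000001-92500000, in the longest run, they gave 0.18 and 0.20, against -0.019 and -0.0057 in Th1 cells, a difference of 0.20 (SE 0.044, limma adjusted p = 0.0202). Neither bin showed overlap between the groups. Stat4 KO arrays were also more enriched near the bait than Th1 arrays, at 1.70 ± 0.0064 against 0.92 ± 0.32 (SD, n = 2 each), and no bin passed after either scaling. Without either Th1 array 1 bin passed, and without the first Stat4 KO array 9 did.

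No bin of the set passed between Stat6 KO Th2 and Th2 cells with the Il4 bait, as none of the trans bins did (0.00%). At an unadjusted p under 0.05, 30 of the set were higher and 1 was lower, with no count made over all trans bins. The median difference was 0.08, against 0.03 over all trans bins. The median was 0.02 after division by the median absolute deviation, against 0.02 over all trans bins. After quantile normalization it was -0.0064, against -0.0091, with 9 higher and 11 lower at an unadjusted p under 0.05. In the 3T3-L1 line against Th1 and Th2 cells with the Ifng bait, 1 bin was higher, beside 3.42% of trans bins, and 4 were lower, beside 0.401%. The bin higher in 3T3-L1, chr13:96500001-97000000 in band 13qD1, gave 0.24 and 0.36, against 0.059 and 0.074 in Th1 and 0.060 and 0.093 in Th2 cells, a difference of 0.23 (SE 0.047, limma adjusted p = 0.00585). The falls were -0.19 at chr15:78500001-79000000, -0.18 at chr3:89000001-89500000 and -0.17 at chr15:98500001-99000000 among those named. Without the first 3T3-L1 array the 4 falls were lost and the rise was kept, without the second the rise was lost and 2 falls passed, and without Th2 replicate 1 or 2 the count was 2 or 8.

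Few of the bins passed between wild-type cell types with the Il4 bait. Th1 minus naive cells had a median of 0.03 over the 184 bins, against 0.04 over all trans bins. It called 0, as in all trans bins (0.00%), with 12 higher and 4 lower at an unadjusted p under 0.05. The median was -0.02, with 75 bins positive, without Il4 naive replicate 1 and 0.11, with 155 positive, without replicate 2. Th2 minus Th1 cells had a median of -0.10, against -0.03 over all trans bins. It called 0 (0.00% of trans bins), with 45 lower at an unadjusted p under 0.05, again not counted over all trans bins. The smallest p was at chr15:80000001-80500000, with 0.16 and 0.11 in Th2 cells, against 0.40 and 0.45 in Th1 cells, a difference of -0.29 (SE 0.061, limma adjusted p = 0.0793) that did not pass although the groups did not overlap. Th2 minus naive cells called 1 lower bin, the only one of all trans bins (0.0236%). It lay at chr12:100000001-100500000 in band 12qE, with 0.016 and -0.010 in Th2 cells, against 0.23 and 0.29 in naive cells (difference -0.25, SE 0.054, limma adjusted p = 0.0330). That call was lost without Il4 naive replicate 2, either Th2 array or either Stat6 KO array, with 3 calls without Il4 naive replicate 1. The median of Th2 minus naive was -0.15 between the 2 arrays of series 31 and 0.03 between those of series 40, so its direction differed by series. Over all trans bins it was 0.0095 and 0.019.

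The comparison of baits gave the most calls. In Th1 cells, 24 of the 184 bins were lower with the Ifng bait than with the Il4 bait, beside 2.69% of trans bins, and 0 were higher, beside 0.307%. The median difference was -0.15, against -0.0075 over all trans bins. At chr2:30500001-31000000 the Ifng arrays of Th1 cells gave -0.019 and 0.044, against 0.42 and 0.56 in the Il4 arrays, a difference of -0.48 (SE 0.082, limma adjusted p = 0.00120). At chr4:133500001-134000000 the Ifng arrays gave 0.0048 and 0.040, against 0.30 and 0.46 in the Il4 arrays, a difference of -0.36 (SE 0.062, limma adjusted p = 0.00132). At chr9:21500001-22000000 in band 9qA3 they gave 0.0015 and 0.044, against 0.34 and 0.41, a difference of -0.35 (SE 0.059, limma adjusted p = 0.000953). The Ifng and Il4 arrays did not overlap at any of these bins. Within series 40 alone the median difference was -0.14, with 170 of 184 bins lower.

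In Th2 cells no bin of the set passed between baits, beside 0.0708% of trans bins higher and 0.00% lower (1 call without Ifng Th2 replicate 2). At an unadjusted p under 0.05, 11 were higher. The median difference was 0.03, against 0.03 over all trans bins. After quantile normalization the median was -0.02, against -0.0061 over all trans bins. There 1 bin was higher and 14 were lower at an unadjusted p under 0.05, and 1 lower bin was called. The bait difference itself was then set between the cell types, as Th1 minus Th2 of Ifng minus Il4. It was lower in 12 of the 184 bins, beside 0.920% of trans bins, and higher in 0, beside 0.00%. The median was -0.17, against -0.035 over all trans bins. The called bins lie toward the lower right in the plot of bait differences. At chr15:80000001-80500000 Th1 cells gave 0.14 and 0.020 with Ifng, against 0.40 and 0.45 with Il4, while Th2 cells gave 0.26 and 0.26 with Ifng, against 0.16 and 0.11 with Il4 (-0.47, SE 0.089, limma adjusted p = 0.00551). At chr2:30500001-31000000 the value was -0.48 (SE 0.12, limma adjusted p = 0.0282), and at chr4:133500001-134000000 -0.41 (SE 0.087, limma adjusted p = 0.0133).

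The Ifng Th1 and Il4 Th2 arrays, which enter these comparisons, were the least enriched near the bait of all groups, and the part of this in the results was not tested. After division by the median absolute deviation 6 bins were lower and 1 was higher in Th1 cells, beside 17 lower and 46 higher of 4237 trans bins. After quantile normalization 9 were lower and 0 higher, beside 35 lower and 34 higher trans bins. The interaction called 0 under both, beside 2 lower trans bins under the first, and 2 lower and 3 higher under the second. Without Ifng Th1 replicate 1 or 2 the Th1 difference called 6 or 11 bins and the interaction 1 or 4, and without Il4 Th1 replicate 2 the counts were 11 and 6. The Il4 naive arrays, which enter only through the shared spread, raised them to 41 and 22 when either was left out. The interaction called 2 and 5 bins without Ifng Th2 replicate 1 and 2, 2 and 3 without Il4 Th2 replicate 1 and 2, and 7 without any 1 of the Stat4 KO or 3T3-L1 arrays.

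**Figure D4:**
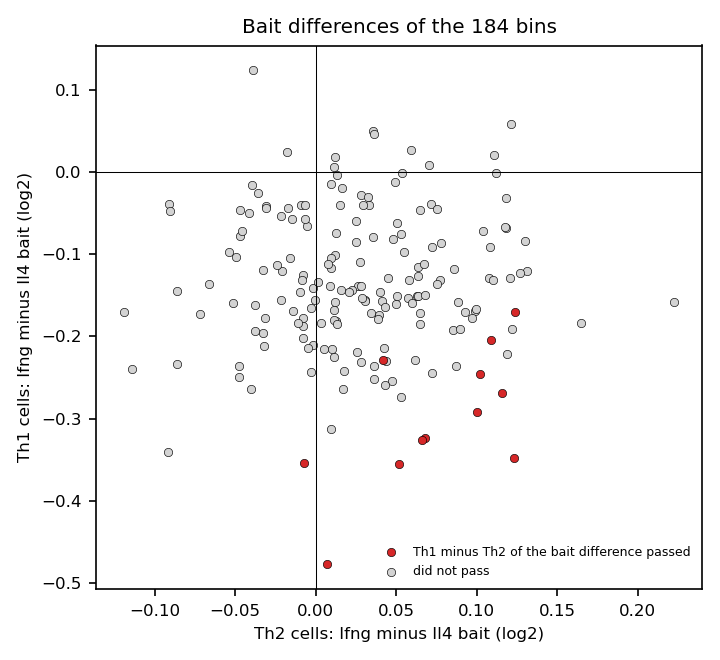
Ifng minus Il4 bait of each of the 184 bins in Th1 cells (vertical, log2) against the same in Th2 cells (horizontal, log2). Red points mark the 12 bins whose difference between the cell types passed, which are lower in Th1 cells, with median differences of all bins of -0.15 in Th1 and 0.03 in Th2 cells.

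The bins share features that the rule did not use. Of the 184, 59 (32.1%) lay in the last 20 Mb of their chromosome, against 16.1% of trans bins, and 7 (3.80%) in the first 20 Mb, where mouse chromosomes have their centromere, against 13.1%. Of the 172 that lie in 1 cytogenetic band, 58.1% were in bands with the lightest stain, against 40.5% of trans bins, and 14.5% in the darkest, against 30.1%. Light bands are in general rich in genes. The bands of the 184 bins had a median of 9.98 protein-coding genes per Mb, against 6.50 for all trans bins. With trans bins split by genes per Mb of their band into 4 classes of about equal size, the share in the set was 0.511% in the class with the fewest genes, 2.93% and 5.42% in the next 2 and 8.77% in the class with the most. The number of probes was alike, with a median of 76.5 in the 184 bins and 78 in all trans bins.

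**Figure D5:**
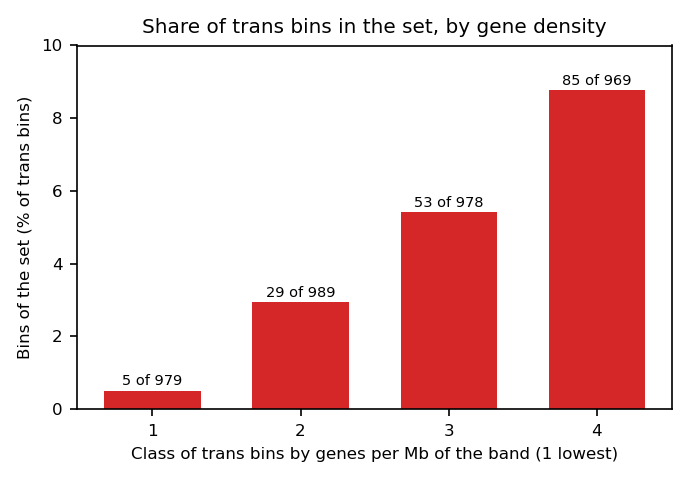
Share of trans bins that belong to the 184 (percent, bars from 0), in 4 classes of trans bins by protein-coding genes per Mb of their cytogenetic band, lowest class left. The number of bins in the set and in the class stands above each bar, from 5 of 979 to 85 of 969.

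Across 3915 trans bins placed in 1 band, the level correlated with genes per Mb at r = 0.26 and 0.36 in the naive Ifng arrays, a description over bins that share bands. The 2 Il4 Th1 arrays gave 0.33 and 0.41, Il4 naive 0.16 and 0.42, Il4 Th2 0.34 and 0.32, and Stat6 KO Th2 0.42 and 0.32. Ifng Th2 arrays gave 0.32 and 0.25, Stat4 KO Th1 0.32 and 0.25, Ifng Th1 -0.0089 and 0.17, and 3T3-L1 -0.016 and 0.19. By chromosome, the share was highest on chromosome 15, with 19 of 201 bins (9.45%), and lowest on chromosome 7, with 4 of 267. By band, 14qC2 held 4 of its 5 bins, 16qC4 7 of 12 and 15qE1 6 of 11. Of 326 bands, 88 (27.0%) held at least 1 bin of the set.

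Genes could be placed only in bands, so a gene named here need not lie in a bin of the set. Of 15128 protein-coding genes placed, 6784 (44.8%) lay in a band with a bin of the set. For genes of naive cells and T cell identity the count was 11 of 18. They include Runx1 in 16qC4 and Runx3 in 4qD3, RUNX transcription factors of T cell development, Bcl11b in 12qF1, a factor that commits cells to the T lineage, Ptprc in 1qE4, which encodes the phosphatase CD45, and Ets1 in 9qA4. Il7r, Lef1, Cd28, Bcl2, Cd8a, S1pr1 and Klf2 lay in bands without a bin of the set. Of Th1 genes the count was 5 of 8, among them Stat4 in 1qC1.1, Irf8 in 8qE1, and Eomes in 9qF3, a T-box factor that can drive Ifng. Hlx, Il12rb1 and Il12rb2 lay in bands without a bin of the set. Of Th2 genes the count was 7 of 10, among them Gata3, the master factor of Th2 cells, and Il2ra in 2qA1, Maf in 8qE1, an activator of Il4, and Il10 in 1qE4. Il4ra, Irf4 and Bhlhe41 lay in bands without a bin of the set. Several of these counts rest on 1 bin of a wide band, as for Ets1 (1 of 26 bins), Gata3 (1 of 22), Stat4 (1 of 21) and Eomes (1 of 16).

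Of STAT and JAK pathway genes the count was 5 of 8, among them the kinase Tyk2 in 9qA3 and the inhibitors Socs1 in 16qA1 and Cish in 9qF1. Jak1, Jak2 and Jak3 lay in bands without a bin of the set. Housekeeping genes gave 3 of 7, Rplp0, Actb and Ywhaz. Of genes of neurons, fibroblasts and fat cells, 2 of 10 were in such a band, Col3a1 and Adipoq. The lists also share bands, such as 1qC1.1 with Stat4 and Col3a1, and 8qE1 with Irf8 and Maf. These counts describe whole bands, and nothing particular to a list is read from them.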

How the data were processed

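The deposited values were log ratios, treated as log2, of Cy5-labelled 4C DNA over Cy3-labelled digested genomic DNA per probe, made by the authors per the labels' protocols. The base of the logarithm, the scanner, the normalization and the genome build are not given in the sources used here. The labels' protocol describes adherent cells and other bait genes, so groups and replicate numbers followed titles and source names. Probe positions fitted mm8 (0 of 21 chromosomes with a probe past the end). In 7 of 9 replicate pairs the sorted values were nearly equal within 0.011, not so in Ifng Th1 (42.8%) and Il4 Th2 (10.8%).

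Arrays were centred on the median of probes off the bait chromosome and averaged in 500-kb bins with 20 or more probes. Tests used limma 3.58.1 in R 4.3.3 (lmFit, contrasts, eBayes; two-sided; Benjamini-Hochberg over all 5021 bins of a bait, or 5016 with both baits, at 0.05), without the naive Ifng arrays and without bins within 1 Mb of a bait. The fit was tested on simulated data for part of the comparisons, and for Il4 naive alone among the tests above the median. Bands came from circlize 0.4.16, and genes per band from a RefSeq table of GRCm38.p6. The 184 bins and the gene lists were chosen with earlier results of these data known. Named bins were the extremes in naive level, runs, gaps, lowest other array and Il4 mean, those at the rule's edge, and up to 3 calls per comparison and direction, or else the smallest p. Python 3.11.15, numpy 2.4.6, pandas 2.3.3 and matplotlib 3.10.9 were used. No sequences are shown, since no genome of this build was used here.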

Additional observations from a re-analysis of the deposited data

Results flagged for a closer look

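A difference between groups under the same contrast set apart 12 of the 184 bins, in which Ifng minus Il4 differed between Th1 and Th2 cells by limma's interaction test. The 3 largest were -0.4842 at chr2:30500001-31000000, -0.4709 at chr15:80000001-80500000 and -0.4076 at chr4:133500001-134000000, all lower in Th1 than in Th2 cells. None of the 12 passed after scaling the arrays, and the part of enrichment near the bait, which was 0.92 in Ifng Th1, 2.62 in Ifng Th2, 1.83 in Il4 Th1 and 0.87 in Il4 Th2 arrays, was not tested.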

How the results depend on the processing

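The number of bins that met the rule was 374 at a threshold of 0.15 and 23 at 0.3, 508 in 200-kb bins, 76 in 1000-kb bins, 9 with the median of probes, and 269 to 503 with 1 naive array. The median level in Stat4 KO Th1 cells was 0.1497, 0.1434 and 0.1511 with 1000-kb bins, 200-kb bins and centring off both bait chromosomes, against 0.1461. At a threshold of 0.3 the medians were 0.1673 in Stat4 KO, 0.0524 in Ifng Th1 and 0.1870 in Il4 Th1 cells. With the median of probes they were 0.0088 in 3T3-L1, 0.0538 in Stat4 KO, 0.0150 in Ifng Th1, 0.0900 in Ifng Th2, 0.0869 in Stat6 KO and 0.1262 in Il4 Th1 cells.

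Counts of called bins moved as follows, and the cause was not tested. After division by the median absolute deviation Ifng Th1 minus Th2 called 1 rise, beside 5 rises and 0 falls of 4237 trans bins. Stat4 KO minus Th1, Il4 Th2 minus naive and the interaction called 0, beside 0, 1 and 2 trans bins. The Th1 bait difference called 7, beside 17 lower and 46 higher trans bins. Above the median 65 passed in Ifng Th1, beside 589 trans bins, and 74 in Il4 Th2, beside 374. After quantile normalization Ifng Th1 minus Th2 called 1 rise, beside 7 rises and 4 falls of trans bins. Stat4 KO minus Th1, Il4 Th2 minus naive and the interaction called 0, beside at most 6 trans bins in a direction. The Th1 bait difference called 9, beside 35 lower and 34 higher, and the Th2 one 1, beside 7 and 2. Above the median 61 passed in Ifng Th1, beside 554, and 96 in Il4 Th2, beside 530. For 3T3-L1 2 rises and 6 falls passed, beside 181 and 27. With the median of probes Ifng Th1 minus Th2 called 23 falls, beside 86 falls and 52 rises of trans bins. For 3T3-L1 1 fall passed, beside 7 falls and 60 rises. Stat4 KO minus Th1, Il4 Th2 minus naive, the Th1 bait difference and the interaction called 0, beside at most 2 trans bins. Counts above the median, with trans counts as given above, were then 0 in Ifng Th1, 110 in Ifng Th2, 10 in Stat4 KO and 1 in 3T3-L1. With the Il4 bait they were 20 in naive, 10 in Th1, 0 in Th2 and 0 in Stat6 KO cells.

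The arrays of the compared groups alone were an alternative chosen after seeing the data. Ifng Th1 minus Th2 then called 3 falls, beside 18 falls and 2 rises of 4237 trans bins. Il4 Th2 minus naive called 0, Il4 Th2 minus Th1 1 and Stat6 KO minus Th2 1, beside 0, 2 and 2 trans bins. The interaction called 24, beside 107 lower and 4 higher trans bins. Above the median 53 passed in Ifng Th1, beside 278 trans bins, and 113 in Il4 Th2, beside 651. With the serial series as a block Ifng Th1 minus Th2 and Il4 Th2 minus naive called 0, as in all trans bins. The Th1 bait difference called 15, beside 42 lower and 3 higher trans bins, and the interaction 5, beside 16 lower and 0 higher. Whether replicate numbers pair the arrays could not be decided, and the main tests did not pair them. Differences between replicates of 36 pairs of groups correlated at -0.37 to 0.45, with 15 over 0.1. The highest was between Ifng naive and Il4 naive, at 0.45, but 3T3-L1, another cell source, gave 0.43 with Il4 naive. With the replicate block Ifng Th1 minus Th2 called 4 falls, beside 19 falls and 2 rises of trans bins. Above the median 15 passed in Ifng Th1, beside 79 trans bins, and 0 in Il4 Th2, beside 0. Il4 Th2 minus naive called 0, beside 1 higher trans bin.

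Leaving out 1 array at a time gave 1 to 8 calls for Ifng Th1 minus Th2, 1 to 9 for Stat4 KO minus Th1, 1 to 8 for 3T3-L1 (1 rise without its first array), 0 to 3 for Il4 Th2 minus naive, 6 to 41 for the Th1 and 0 to 1 for the Th2 bait difference, and 1 to 22 for the interaction. Above the median it gave 1 to 23 in 3T3-L1, 96 to 158 in Stat4 KO, 6 to 31 in Ifng Th1, 49 to 136 in Ifng Th2, 9 to 133 in Stat6 KO, 0 to 10 in Il4 Th2, 31 to 145 in Il4 Th1 and 11 to 106 in Il4 naive cells. A lone array was taken to vary like the other groups. These ranges stand without the calls over all trans bins, and nothing particular to the set is read from them. Of the 18 named calls under all alternatives, 233 values stayed past the threshold and 96 did not, and none changed sign. Of the counts and median levels under all alternatives, 252 stayed near the value given, 118 moved, and 3 counts of calls turned from mostly falls to rises alone.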
